A study of Mus musculus with 17 samples.

Results

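Astrocytes are the glial cells that take up transmitter and potassium, wrap blood vessels with their endfeet and supply neurons with metabolites. Gfap encodes their intermediate filament protein, which is scarce in many resting astrocytes of grey matter and accumulates when astrocytes become reactive after injury or inflammation. Other astrocyte genes, for water channels, gap junctions, metabolic enzymes and transporters, mark these cells whether or not they are reactive. Here Gfap was set against 9 general astrocyte genes, Aqp4, S100b, Aldh1l1, Gja1, Agt, Fgfr3, Sox9, Aldoc and Slc7a10. They were chosen by name, and the files hold 1 row for each of the 10 among 78298 genes.

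The 17 libraries came from tissue labelled locus coeruleus, a noradrenergic nucleus of the brainstem, of male C57BL/6 mice. Of these, 5 were from mice given vindeburnol, a synthetic relative of the vinca alkaloids, at 20 mg/kg by mouth once daily for 5 days, 6 from mice given the derivative VB-127 at the same dose and for the same time, and 6 from untreated controls. Tissue was taken 24 h after treatment. The controls are described as untreated and not as gavaged, so an effect of a compound and one of the gavage cannot be told apart. Whether every library came from its own animal is not stated, so the tests measure the spread between libraries.

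Expression was deposited as TPM, a share of each library's transcripts scaled to a fixed total, which carries no read depth, so precision rests on the spread between libraries. Between 21016 and 26993 genes were above 0 in a library. The neuronal RNA Bc1 took 16.1% to 35.3% of the TPM total, and its share moves every other gene's TPM. The noradrenaline synthesis gene Dbh, the defining marker of the labelled nucleus, was under 3 TPM in 15 of the 17 libraries and reached 18.9 TPM in control replicate 1 and 12.3 TPM in control replicate 6.

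All 10 astrocyte genes were above 0 in all 17 libraries, and 10 of 10 passed the filter for testing, 1 TPM in at least 5 libraries. TPM is a value per transcript length, so levels can be ordered between genes. In controls the highest was Aldoc, the aldolase of astrocyte glycolysis, at 1331 ± 108 TPM (SD, n = 6). The calcium-binding protein gene S100b followed at 278 ± 44.3, then Agt, which encodes angiotensinogen, at 185 ± 18.1, and Gfap at 144 ± 32.9. The gap junction gene Gja1 was at 81.3 ± 15.2 TPM, the growth factor receptor gene Fgfr3 at 68.1 ± 11.0, the endfoot water channel gene Aqp4 at 47.6 ± 12.3 and the folate enzyme gene Aldh1l1 at 44.9 ± 3.06. Slc7a10, the transporter of serine and other small neutral amino acids, was at 36.1 ± 4.19 TPM and the transcription factor gene Sox9 was lowest, at 10.5 ± 1.27. Neighbours in this order had overlapping control ranges except Aldoc and S100b, S100b and Agt, Gfap and Gja1, and Slc7a10 and Sox9.

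The promoters of Gfap, Aldh1l1 and Slc7a10 are shown because the differences between groups with the smallest p among the 10 genes were in these 3. Each window runs from 250 bases before to 50 bases after a start site in RefSeq on GRCm38.p6, an older build than the GRCm39 of the deposited values. Gfap (ENSMUSG00000020932) lies at chr11:102897151-102897450 on the minus strand, Aldh1l1 at chr6:90550543-90550842 on the plus strand and Slc7a10 at chr7:35186135-35186434 on the plus strand. Capitals mark a match to the STAT motif TTCNNNGAA.
Gfap: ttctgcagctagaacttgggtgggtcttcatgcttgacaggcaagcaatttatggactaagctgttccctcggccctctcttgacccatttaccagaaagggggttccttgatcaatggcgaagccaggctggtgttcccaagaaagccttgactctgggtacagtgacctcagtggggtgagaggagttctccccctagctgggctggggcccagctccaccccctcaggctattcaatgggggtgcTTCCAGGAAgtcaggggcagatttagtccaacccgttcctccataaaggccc
Aldh1l1: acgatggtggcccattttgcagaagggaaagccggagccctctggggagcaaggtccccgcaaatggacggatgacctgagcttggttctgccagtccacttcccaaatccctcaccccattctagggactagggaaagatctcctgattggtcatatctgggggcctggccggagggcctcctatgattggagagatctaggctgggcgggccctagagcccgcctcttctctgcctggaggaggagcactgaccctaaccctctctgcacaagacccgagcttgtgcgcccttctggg
Slc7a10: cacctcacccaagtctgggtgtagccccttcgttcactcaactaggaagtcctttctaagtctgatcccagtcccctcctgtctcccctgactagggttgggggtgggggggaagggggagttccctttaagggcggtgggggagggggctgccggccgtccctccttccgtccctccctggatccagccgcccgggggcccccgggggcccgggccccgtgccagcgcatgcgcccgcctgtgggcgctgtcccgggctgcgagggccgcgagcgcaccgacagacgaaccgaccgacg
A single STAT match, TTCCAGGAA, stood at bases 249 to 257 of the Gfap window, beginning 2 bases before the start site, and the other 2 windows held none. STAT factors are activated by cytokine signals, and Stat3 is a known inducer of Gfap. Of the 10 genes, 8 were in the promoter table, with 10 windows in all. The STAT motif was in 3 of the 10 windows, those of Gfap, Agt and Aldoc, against 8.30% of 32851 windows. The NFI motif TTGGC was in 3 of 10, of Agt, Aldoc and S100b, against 46.7%, and the SOX motif ACAATG was in 0 of 10 against 12.6%. Both strands were searched and STAT and NFI matches did not overlap in these windows. GC content was 55.7% for Gfap, 60.0% for Aldh1l1 and 70.7% for Slc7a10, against a median of 52.7% over all windows.

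Whether dosing with vindeburnol altered astrocyte genes was asked against the controls. No member passed the test in that comparison: limma called 0 of 10, and over all 16153 genes tested it called 0% at an adjusted p under 0.05. At an unadjusted p under 0.05 there were 3 of 10, Aldh1l1 with a higher value and Gfap and S100b with lower ones, where 8.17% of all genes were at that p (6.95% higher and 1.22% lower). The value was higher in 3 of 10 and the median log2 difference of the 10 was -0.08, beside 0.08 over all genes. With 1 library left out, 2 to 4 of the 10 were at that unadjusted p.

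Gfap was at 113 TPM in the lowest, 136 in the median and 207 in the highest control library. The vindeburnol replicates 1 to 5 were at 102, 89.9, 109, 111 and 65.9 TPM. VB-127 libraries were at 84.4 in the lowest, 102 in the median and 160 in the highest. Every vindeburnol library therefore lay below every control, though narrowly, since the highest of the former was at 110.8 TPM and the lowest of the latter at 112.9, while VB-127 and control libraries overlapped.

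The vindeburnol mean of Gfap, 95.5 ± 18.4 TPM (SD, n = 5), was 66.2% of the control mean. Its log2 difference, taken on log2(TPM + 1) throughout, was -0.59 (SE 0.17, 95% interval -0.94 to -0.24, adjusted p 0.454 in limma). By p it was 82nd of 16153 genes, and 0.0619% of genes lay below every control library. Control replicate 6, the highest, also had the most Lcn2, a gene of reactive astrocytes and of neutrophils, at 126 TPM. Without it the log2 difference of Gfap was -0.48, without vindeburnol replicate 5 it was -0.46, and with the mean of 25 other general astrocyte genes as a covariate it was -0.61. Under median-ratio scaling or with Bc1 left out of the total, the Gfap ranges of the groups overlapped, although the difference under median-ratio scaling was -0.67. In bulk tissue, fewer cells of a type and less RNA per cell cannot be told apart.

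**Figure D1:**
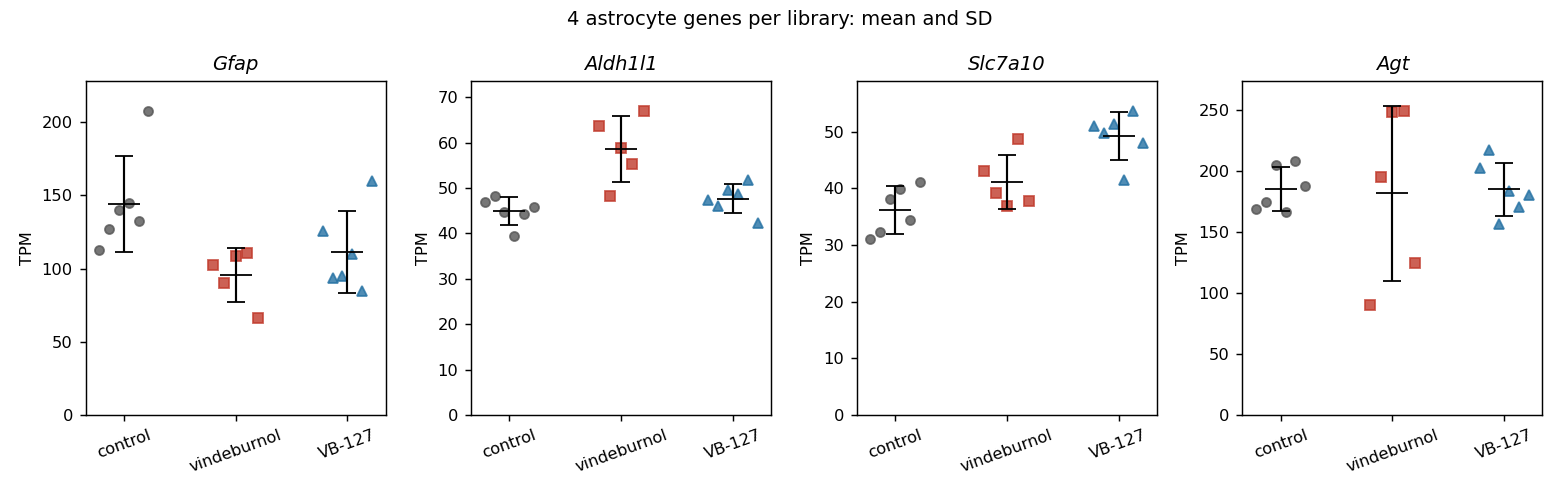
TPM (linear axis from 0) of Gfap, Aldh1l1, Slc7a10 and Agt in each library, by group, with the mean and SD. Gfap lies lowest after vindeburnol, with no overlap with controls in the values as deposited; Aldh1l1 lies highest after vindeburnol and Slc7a10 after VB-127; Agt has close means and the widest spread after vindeburnol.

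Aldh1l1, the cytosolic formyltetrahydrofolate dehydrogenase often used as a pan-astrocyte marker, went the other way. Its control libraries were at 39.4 TPM in the lowest, 45.3 in the median and 48.3 in the highest. The vindeburnol replicates 1 to 5 were at 63.7, 48.3, 58.8, 55.4 and 66.9 TPM. VB-127 libraries were at 42.4, 48.0 and 51.7 TPM in the lowest, median and highest. All but vindeburnol replicate 2 lay above every control and every VB-127 library.

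The vindeburnol mean of Aldh1l1, 58.6 ± 7.29 TPM, was 131% of the control mean, and 5 of 5 libraries lay above that mean. The log2 difference was 0.37 (SE 0.09, 95% interval 0.19 to 0.56, adjusted p 0.404 in limma), 15th by p among 16153 genes. Median-ratio scaling gave 0.29. Folate enzymes that work alongside Aldh1l1 gave a count of 1 higher and 0 lower at an unadjusted p under 0.05 among 8 tested, with values higher in 4 and a median of -0.03. The 1 was Gnmt, a glycine methyltransferase gene, with a log2 difference of 0.57, where 6.95% of all genes were higher at that p. Gnmt did not meet the mean of at least 2 TPM asked of named genes, and low genes carry counting error that cannot be given. Among the others Mthfd1, the trifunctional folate enzyme, was at 20.0 ± 2.59 TPM in controls and 21.6 ± 3.16 after vindeburnol, a log2 difference of 0.11.

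S100b was at 218, 290 and 340 TPM in the lowest, median and highest control library. Vindeburnol replicates 1 to 5 were at 262, 248, 161, 169 and 292 TPM. Replicates 3 and 4 were below every control and every VB-127 library, whose range was 224 to 303 TPM, and the other 3 lay within the control range. The log2 difference was -0.32 (SE 0.14, 95% interval -0.62 to -0.02, adjusted p 0.583). It ranged from -0.42 to -0.21 with 1 library left out, and its unadjusted p was over 0.05 without control replicate 2, 4, 5 or 6 and without vindeburnol replicate 3 or 4, where it reached 0.146.

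Agt gave close means, 185, 182 and 185 TPM in controls, after vindeburnol and after VB-127, with unequal spread. It was at 167 to 208 TPM in controls and 157 to 218 TPM after VB-127. Vindeburnol replicates 1 to 5 were at 90.4, 195, 249, 249 and 125 TPM, so replicates 1 and 5 lay below and replicates 3 and 4 above all 12 other libraries. The coefficient of variation was 39.7% after vindeburnol, 9.80% in controls and 11.8% after VB-127; no test of spread was run. Agt supplies the precursor of angiotensin peptides, and of the 7 genes of that system that could be tested of 11 listed, 1 was higher after vindeburnol at an unadjusted p under 0.05. This was Ace, the angiotensin-converting enzyme, at 15.6 ± 2.78 TPM against 12.5 ± 1.97 (log2 difference 0.30, adjusted p 0.556). The all-gene share higher at an unadjusted p under 0.05 was 6.95%.

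Sox9, which specifies and maintains astrocyte identity, also spread widely after vindeburnol, with a coefficient of variation of 30.7% against 12.0% in controls and 12.2% after VB-127. Vindeburnol replicates 1 to 5 were at 6.34, 10.5, 5.71, 12.0 and 9.33 TPM, and controls ranged from 9.11 to 12.8 TPM. Replicates 1 and 3 lay below the control range and the mean difference was -0.28 (95% interval -0.60 to 0.05, adjusted p 0.641). Tph2, the serotonin synthesis gene, was also low in these 2 libraries, at 5.82 and 16.6 TPM against 54.9 to 83.2 in the other 3. After VB-127, however, replicates 1 and 4, with Tph2 at 1.08 and 18.1 TPM, held Sox9 at 12.4 TPM, the highest of that group, and 10.8 TPM. Vindeburnol replicate 3 held the Purkinje cell gene Pcp2 at 20.3 TPM, against 0 to 4.88 in the other 16. The part of tissue content in the Sox9 values was not tested.

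Of 13 gliogenic transcription factors that act with Sox9, 1 was higher and 2 were lower after vindeburnol at an unadjusted p under 0.05. None was called, and the all-gene shares at that p were 6.95% higher and 1.22% lower. Sox2, a factor of neural progenitors and glia, was at 21.3 ± 5.55 TPM against 28.6 ± 3.81 (log2 difference -0.44, adjusted p 0.507). Id3, an inhibitor of basic helix-loop-helix factors, was at 20.3 ± 6.83 against 27.7 ± 3.58 TPM (-0.48, adjusted p 0.514). Lhx2 was at 9.10 ± 3.41 against 5.44 ± 3.56 TPM (0.78, adjusted p 0.555). Values of the 13, which do not include Sox9, were higher in 5, with a median of -0.06 beside 0.08 over all genes. After VB-127 they were higher in 10 of 13, with a median of 0.11. Vindeburnol against VB-127 gave 0 higher and 4 lower at an unadjusted p under 0.05, where 0.891% of all genes were higher and 2.49% lower. There the values were higher in 2 of 13 and the median was -0.21, beside -0.03 over all genes.

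The intervals of the remaining members held 0 after vindeburnol, which does not show that their levels were unchanged. Aqp4 ranged from 26.3 to 60.7 TPM against 31.7 to 62.7 in controls (log2 difference -0.22, 95% interval -0.65 to 0.21). Gja1, the main connexin of astrocytes, ranged from 61.3 to 108 TPM against 54.7 to 95.3 (-0.02, -0.31 to 0.27). Fgfr3 was at 58.9 to 93.2 against 50.9 to 79.6 TPM (0.11, -0.17 to 0.39). The Aldoc libraries held between 1218 and 1514 TPM against 1226 to 1521 (-0.02, -0.15 to 0.11), the narrowest interval of the 10. Slc7a10 was at 43.0, 39.2, 36.9, 48.7 and 37.8 TPM in replicates 1 to 5, all above the control mean, with a difference of 0.18 (-0.02 to 0.39, adjusted p 0.628).

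**Figure D2:**
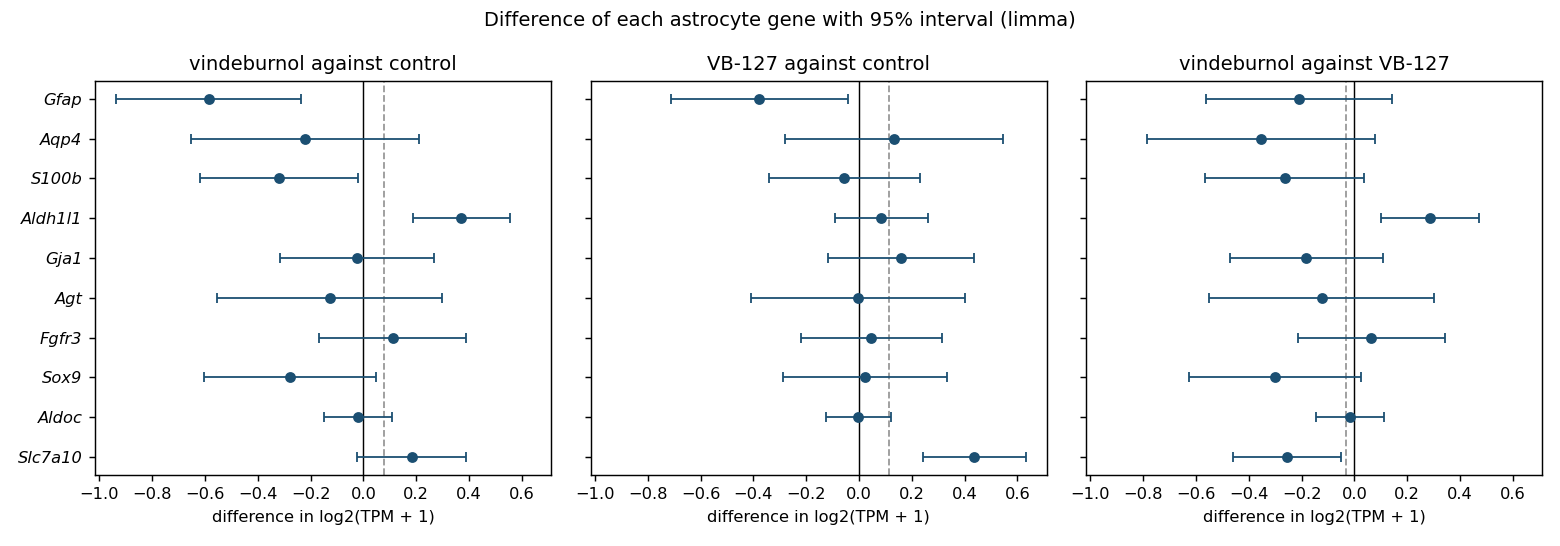
Log2 difference of each of the 10 genes in the 3 comparisons, points with 95% intervals; the dashed line is the median of all genes tested and the solid line 0. For vindeburnol against controls only the Gfap and S100b intervals lie below 0 and only that of Aldh1l1 above it; for VB-127 the Gfap interval lies below and that of Slc7a10 above.

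VB-127 was set against the same control libraries, so the comparisons share them and a resemblance between the compounds is not independent. limma called 0 of 10 members, where 0.00619% of all genes were called. At an unadjusted p under 0.05 stood 2 of 10, Slc7a10 higher and Gfap lower, beside 10.2% of all genes (9.67% higher and 0.532% lower). Values were higher in 6 of 10, and the members' median of 0.03 lay beside 0.11 over all genes.

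Slc7a10 encodes Asc-1, which exchanges serine and other small neutral amino acids, including D-serine, a co-agonist of NMDA receptors, across the membrane. In controls it was at 31.1, 36.2 and 41.1 TPM in the lowest, median and highest library. After VB-127 it was at 41.5, 50.3 and 53.6 TPM. The groups did not overlap, by a margin of 41.46 over 41.12 TPM, while the vindeburnol libraries, at 36.9 to 48.7 TPM, overlapped both.

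The VB-127 mean of Slc7a10, 49.2 ± 4.21 TPM (SD, n = 6), was 136% of the control mean. The log2 difference was 0.44 (SE 0.09, 95% interval 0.24 to 0.63, adjusted p 0.363 in limma), 5th by p of 16153 genes, where 0.656% of genes lay above every control library and 0.0124% below. Under median-ratio scaling it was 0.32 and the ranges overlapped, as they also did with quantile normalization and without Bc1. Of the 12 genes for serine and glycine handling, 4 were higher and 1 lower at an unadjusted p under 0.05, and none was called. Over all genes 9.67% were higher and 0.532% lower at that p. Shmt2, the mitochondrial enzyme that interconverts serine and glycine, was at 19.4 ± 1.60 against 14.6 ± 3.21 TPM (0.41, adjusted p 0.461). Slc3a2, the heavy chain that partners Slc7a10 at the membrane, ranged from 95.3 to 109 TPM against 81.0 to 105 (0.18, adjusted p 0.470). The other 2 with higher values were Srr, the racemase that makes D-serine (0.33), and Psph, which completes serine synthesis (0.27). Dao, the oxidase that degrades D-serine, had lower values, at 6.08 ± 2.32 against 11.1 ± 6.66 TPM (-0.70, adjusted p 0.470), and was at 5.83 ± 2.64 TPM after vindeburnol. The list's median was 0.16, and 0.04 under median-ratio scaling, beside all-gene medians of 0.11 and 0.0089. Values were higher in 10 of 12 as deposited and in 8 of 12 under median-ratio scaling.

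Gfap after VB-127, at 111 ± 27.9 TPM, was 77.2% of the control mean, and 1 of 6 libraries, replicate 6 at 160 TPM, lay above that mean. The log2 difference was -0.38 (SE 0.16, 95% interval -0.71 to -0.04, adjusted p 0.470), and -0.27 without control replicate 6. Its unadjusted p was over 0.05 without that library and without VB-127 replicate 2, 3 or 5, reaching 0.0894, so that 1 of 10 members was then at that p. The other 8 members had intervals spanning 0. S100b was at 224 to 303 TPM (-0.06, -0.34 to 0.23) and Agt at 157 to 218 TPM (-0.0033, -0.41 to 0.40). The metabolic gene Aldoc was at 1275 to 1395 TPM (-0.0020, -0.12 to 0.12) and Aldh1l1 at 42.4 to 51.7 TPM (0.08, -0.09 to 0.26). Among membrane genes Aqp4 was at 35.0 to 70.1 TPM (0.13, -0.28 to 0.54), Gja1 at 71.8 to 97.9 TPM (0.16, -0.12 to 0.44) and Fgfr3 at 56.7 to 78.5 TPM (0.05, -0.22 to 0.31). Sox9 was at 9.08 to 12.4 TPM (0.02, -0.29 to 0.33). The Aldh1l1, Fgfr3 and Sox9 values changed sign under median-ratio scaling.

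The compounds were compared with each other at the same dose and time, in 10 member differences. limma called 0 of 10 and 0% of all genes, with an adjusted p of 0.99988 for each member. Aldh1l1 had higher values after vindeburnol, at 0.29 (95% interval 0.10 to 0.47, unadjusted p 0.00405) and Slc7a10 lower by value, at -0.25 (-0.46 to -0.05, unadjusted p 0.0176), 2 of 10 where 3.38% of all genes were at that p (0.891% higher and 2.49% lower). Without vindeburnol replicate 2 there were 5 of 10, with Aqp4, Gja1 and Sox9 lower by value. All genes also moved without that library: 835 of 16153 were at that p, against 546 with every library. Their median difference was then -0.08, against -0.03. Gfap differed by -0.21 with an interval of -0.56 to 0.14. For Aqp4 the interval was -0.79 to 0.08, for Sox9 -0.63 to 0.02 and for S100b -0.56 to 0.03. Those of Gja1 (-0.47 to 0.11), Agt (-0.55 to 0.30), Fgfr3 (-0.21 to 0.34) and Aldoc (-0.15 to 0.11) also held 0. The libraries of the compounds overlapped for all 10 members, where 0.105% of all genes lay above and 0.285% below without overlap.

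The reactive and general genes were next set against each other within each library, as log2(Gfap + 1) minus the mean log2(TPM + 1) of the other 9, a measure nearly free of library scaling. It was 0.40, 0.45, 0.60, 0.92, 0.62 and 1.09 in control replicates 1 to 6. It was 0.35, -0.12, 0.46, 0.22 and -0.25 in vindeburnol replicates 1 to 5. In VB-127 replicates 1 to 6 it was 0.35, 0.12, 0.08, 0.25, -0.23 and 0.73. Controls lay highest, but vindeburnol replicate 3 and VB-127 replicate 6 reached into their range.

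Group means were 0.68 ± 0.27 in controls, 0.13 ± 0.30 after vindeburnol and 0.21 ± 0.32 after VB-127. The difference from controls was -0.55 for vindeburnol (within-group SD 0.29) and -0.47 for VB-127 (within-group SD 0.30). Between the compounds it was -0.08 (within-group SD 0.31). Each SD is the spread between libraries within the groups compared, from the mean of their variances, and not the error of the difference. The mean level of the 9 general genes alone was 6.47 ± 0.12 in controls, 6.44 ± 0.15 after vindeburnol and 6.56 ± 0.08 after VB-127. For vindeburnol the general genes' mean lay within 1 SD of the control mean. That mean averages opposite differences, such as 0.37 for Aldh1l1 and -0.32 for S100b. It therefore does not show that the single general genes were unchanged. On the same log2 scale Gfap was at 7.16 ± 0.30 in controls and 6.57 ± 0.30 after vindeburnol.

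**Figure D3:**
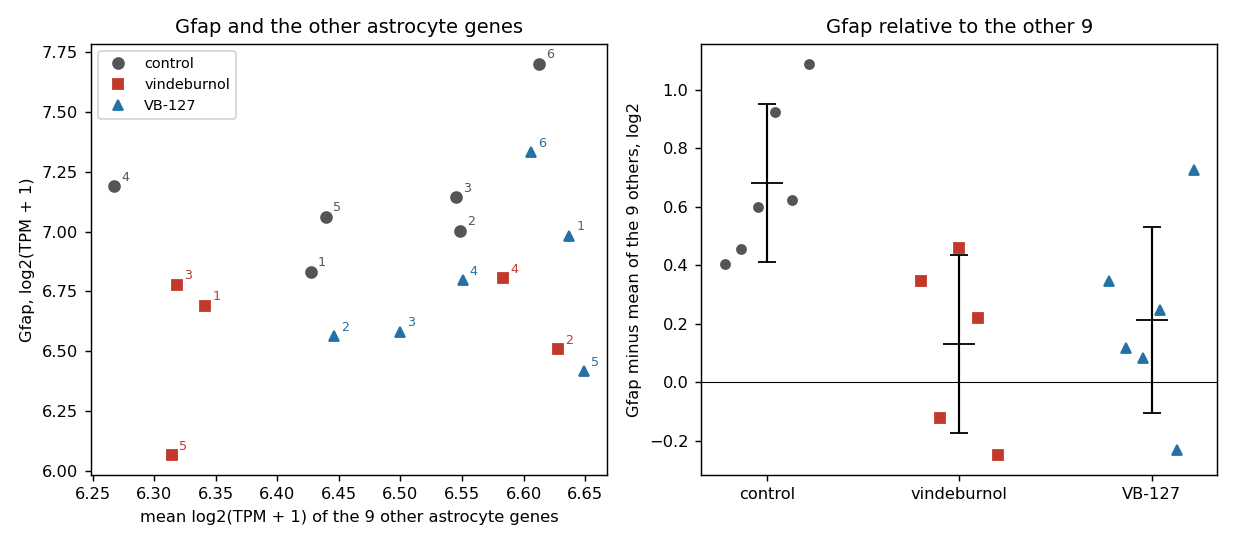
Left, log2(Gfap + 1) against the mean log2(TPM + 1) of the 9 general genes, 1 point a library; right, the difference of the pair by group with mean and SD. The controls lie highest on the right, from 0.40 to 1.09, and the other groups reach from -0.25 to 0.73.

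Other genes of reactive astrocytes were read beside Gfap. Of 12 pan-reactive genes 8 were tested. After vindeburnol 0 were higher and 2 lower at an unadjusted p under 0.05, where 6.95% of all genes were higher and 1.22% lower. Values were higher in 2 of 8 and the median was -0.11, beside 0.08 over all genes. After VB-127 there was 1 in each direction, S1pr3 higher and Lcn2 lower, where 9.67% of all genes were higher and 0.532% lower. By value 3 of 8 were higher, with a median of -0.07 beside 0.11 over all genes. S1pr3 did not meet the mean of at least 2 TPM asked of named genes. The median of both stayed negative under the 3 other scalings. Lcn2 was at 60.5, 1.43, 46.3, 6.35, 11.9 and 126 TPM in control replicates 1 to 6, at 0.625 to 5.89 after vindeburnol and at 0.692 to 7.00 after VB-127. The control mean of Lcn2 therefore rested on 3 libraries, and the summed neutrophil markers, up to 32.2 TPM in controls, reached 4.9 and 6.5 TPM in the treated groups; their part in the Lcn2 values was not tested.

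Cp, encoding the copper protein ceruloplasmin, was at 12.0 ± 6.47 TPM in controls and 6.24 ± 1.88 after vindeburnol (log2 difference -0.72, adjusted p 0.556). Hspb1, a small heat shock protein gene, was at 26.5 ± 8.84, 20.2 ± 4.11 and 21.3 ± 2.93 TPM in controls, after vindeburnol and after VB-127. Vim, whose protein forms filaments with that of Gfap, was at 39.3 ± 10.4, 36.3 ± 5.78 and 41.4 ± 8.09 TPM in the same order. The 5 filament partners of Gfap, Vim among them, had no common direction with it. Values were higher in 4 of 5 after either compound, led by the linker gene Plec at 12.1 ± 2.94, 14.8 ± 2.25 and 15.3 ± 2.34 TPM. The list's median was 0.14 after either compound, beside 0.08 and 0.11 over all genes. Under median-ratio scaling values were higher in 3 of 5, with medians of 0.06 after vindeburnol and 0.05 after VB-127.

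Neuroinflammatory reactive genes, 12 tested, gave 2 higher and 0 lower after vindeburnol at an unadjusted p under 0.05 (median -0.02), and 0 after VB-127 (median 0.08). The 2 were Fkbp5, a glucocorticoid-induced chaperone gene, at 19.0 ± 7.59 against 12.9 ± 3.50 TPM (adjusted p 0.595), and Amigo2, an adhesion gene, at 24.9 ± 3.16 against 20.5 ± 3.31 TPM (adjusted p 0.603). Ischaemic reactive genes, 6 tested of 13, gave 0 higher and 1 lower after vindeburnol (median -0.15) and 0 after VB-127 (median 0.0022). The 1 was S100a10, encoding an annexin partner, at 34.1 ± 10.3 against 47.7 ± 11.2 TPM (-0.49, adjusted p 0.507). None of the genes in these lists was called. The all-gene shares at that p were 6.95% higher and 1.22% lower after vindeburnol, and 9.67% higher and 0.532% lower after VB-127. All-gene medians were 0.08 and 0.11.

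A wider list of 25 other general astrocyte genes gave 5 higher and 0 lower at an unadjusted p under 0.05 after vindeburnol, with values higher in 21 and a median of 0.12. Over all genes 6.95% were higher and 1.22% lower at that p, with a median of 0.08. After VB-127 the list gave 3 higher and 1 lower, with values higher in 20 and a median of 0.09. Over all genes 9.67% were higher and 0.532% lower, and the median, 0.11, lay above that of the list. Under the other 3 scalings values were higher in 15 to 18 of 25 after vindeburnol. After VB-127 they were higher in 10 of 25 under median-ratio scaling, where the median was -0.03, and in 14 and 15 of 25 with quantile normalization and without Bc1. The GABA transporter gene Slc6a11 ranged from 209 to 289 TPM after vindeburnol against 121 to 260 in controls (0.39, adjusted p 0.521). Bcan, a matrix proteoglycan gene, was at 198 ± 8.57 after vindeburnol and 207 ± 9.88 after VB-127 against 172 ± 22.7 TPM in controls.

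Genes that work with single members were mixed. Of 12 endfoot and gap junction partners of Aqp4 and Gja1, 0 were at an unadjusted p under 0.05 after vindeburnol, and after VB-127 Tjp1, a tight junction scaffold gene, was higher (0.46, adjusted p 0.470) and the connexin gene Gjb6 lower by value (-0.28, adjusted p 0.487). Among 12 fibroblast growth factor partners of Fgfr3, 0 were at that p against controls, and Fgfr2 stood at 31.6 ± 7.75 TPM after vindeburnol, 39.6 ± 8.25 in controls and 49.1 ± 11.3 after VB-127. Its difference between the compounds was -0.62 (95% interval -0.99 to -0.24, unadjusted p 0.00249, adjusted p 0.99988). Of 15 glycolysis partners of Aldoc, 4 were higher after vindeburnol and 5 after VB-127 at an unadjusted p under 0.05, with 0 lower at that p and none called. The smallest p was that of the phosphofructokinase gene Pfkl at 51.4 ± 2.78, 60.2 ± 5.74 and 59.7 ± 3.16 TPM in controls, after vindeburnol and after VB-127. Of all genes, 6.95% and 9.67% were higher at an unadjusted p under 0.05 after vindeburnol and after VB-127. Values in the glycolysis list were higher in 12 and 14 of 15. The list's medians, 0.08 and 0.12, were close to the all-gene medians, and were -0.0041 and -0.0022 under median-ratio scaling and 0.037 and 0.044 with quantile normalization.

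Across the 17 libraries the members did not vary as 1 block. Of 45 pairs, 2 passed at a Benjamini-Hochberg adjusted p under 0.05 (permutation test of Pearson's r, adjusted over the 45), and r ranged from -0.66 to 0.82 with a median of 0.11. Aqp4 and Gja1 had r = 0.82 and rho = 0.80 (permutation p 5.0e-05 and 0.00020, adjusted p 0.0022 and 0.0090), 0.80 without the 2 libraries farthest from the median of Aqp4. Within controls, vindeburnol and VB-127 libraries r was 0.74, 0.96 and 0.76. Under median-ratio scaling it was 0.71 with an adjusted p of 0.0724. Gja1 and Fgfr3 had r = 0.74 and rho = 0.63 (permutation p 0.00059 and 0.0087, adjusted p 0.0133 and 0.131), 0.57 without the 2 farthest libraries, 0.82, 0.90 and 0.72 within groups, and 0.38 under median-ratio scaling.

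By Pearson's r none of the 9 pairs with Gfap passed, while by rho Gfap with Aldh1l1 was under 0.05 after adjustment. The strongest was Gfap with Aldh1l1, at r = -0.66 and rho = -0.74 (permutation p 0.0045 and 0.00096, adjusted p 0.0553 and 0.0216), -0.57 without the 2 farthest libraries. Its r was -0.16, -0.37 and -0.84 within controls, vindeburnol and VB-127, and -0.43 over deviations from group means (adjusted p 0.420). Under median-ratio scaling r was -0.32 (adjusted p 0.519 in the same permutation test). The groups of 5 and 6 libraries give these within-group values little precision.

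The 6 genes most like Gfap over the 17 libraries, of 12133 searched, were Slc17a7 (r = 0.73), Adamts2, Ly86, Tanc1, Rsph3a and Cpne9 (0.68), given as a description without a test. Those most like the mean of the 9 general genes were Dixdc1 (0.92), Sh3glb1, Slc39a9, Pogk, Atxn1l and Abhd6 (0.88). No gene was on both lists.

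**Figure D4:**
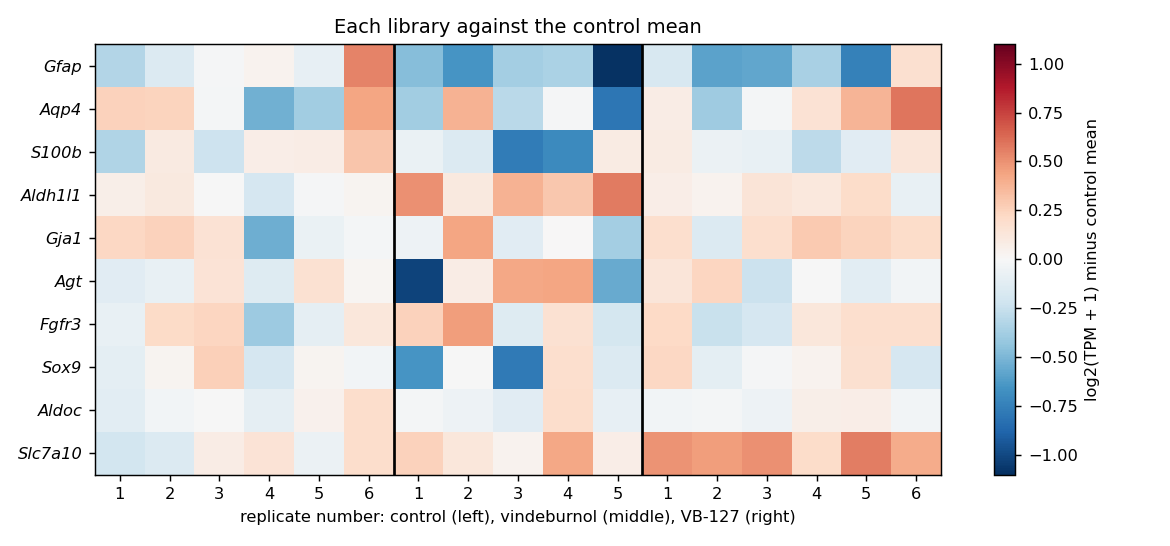
Each library's log2(TPM + 1) of the 10 genes minus the control mean of that gene, colour scale from blue (lower) to red (higher), with libraries in columns by group. Values run from -1.09 to 0.59; the Gfap row is below the control mean in all vindeburnol libraries, and Agt and Sox9 take both signs among the vindeburnol libraries.

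Markers of other cells were read in the same libraries. The summed oligodendrocyte markers, 8 genes, were at 6196 to 10295 TPM in controls, 6888 to 8325 after vindeburnol and 7635 to 9965 after VB-127. The 8 neuron markers summed to 1417 to 3094, 1869 to 2661 and 1883 to 2714 TPM, and the 8 microglia markers to 315 to 472, 318 to 393 and 319 to 401 TPM. Ependymal and Bergmann glia markers, cells that share astrocyte genes, summed to 24.1 to 58.9 and 66.6 to 99.98 TPM in controls, 22.0 to 49.2 and 66.1 to 86.1 after vindeburnol and 33.9 to 59.9 and 61.7 to 93.0 after VB-127. The summed levels of these 5 lists overlapped between the groups.

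Other marker lists had medians further from 0. For noradrenergic neurons, 4 genes tested of 7, the median log2 difference was -0.51 after vindeburnol and -0.42 after VB-127, with values higher in 0 and 1 of 4. For serotonergic neurons the medians were -0.53 and -0.35, with values higher in 0 of 6 after either compound. Endothelial markers had a median of -0.22 after vindeburnol, with values higher in 1 of 6, and 0.13 after VB-127. Pericyte and smooth muscle markers had medians of 0.31 and 0.37. Neutrophil markers, 2 genes tested of 6, had -1.05 and -0.99. Dopaminergic neuron markers had -0.15 and 0.33, with values higher in 1 and 4 of 6. Between the compounds their median was -0.48, with values higher after vindeburnol in 0 of 6. Purkinje cell markers had 0.26 and 0.06, with values higher in 5 and 4 of 6. The summed levels of these lists also overlapped between the groups: 91.2 to 152, 56.5 to 134 and 68.8 to 180.4 TPM for noradrenergic neurons and 139.8 to 346, 75.1 to 270.5 and 109.9 to 287 TPM for serotonergic neurons, in controls, after vindeburnol and after VB-127. No gene of these lists was called. The noradrenergic, serotonergic, microglia and neutrophil medians lay below 0 in the same comparisons as Gfap. Those of microglia markers were -0.16 after vindeburnol and -0.06 after VB-127, with values higher in 2 and 3 of 8. The part of these cells in the Gfap values was not tested. With neuron and oligodendrocyte marker levels in the model, the Gfap difference was -0.55 for vindeburnol and -0.46 for VB-127 (adjusted p 0.143 and 0.346). No member was called in that model, where 14 and 0 of all 16153 genes were called.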

How the data were processed

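The authors deposited TPM per gene for each library; poly(A) libraries were made with a directional kit, per the labels' protocols, and reads were processed with STAR and Salmon on GRCm39, per the submitters' processing notes. Versions and whether counting used strand are not given in the sources used here. The joint table of the series was not used here. TPM carries no depth.

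Values were taken as log2(TPM + 1) and genes at 1 TPM or more in at least 5 libraries were tested, 16153 in all. limma 3.58.1 (R 4.3.3) fitted group to all 17 libraries, with trend and robust moderation and two-sided tests. Benjamini-Hochberg adjustment covered all genes tested, with calls at an adjusted p under 0.05. The fit was tested on simulated data.

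The 10 members were named in every comparison, with up to 3 genes of each list by smallest p and a mean of at least 2 TPM, and the 6 genes most like Gfap and the general mean; Gnmt, Srr, Psph and S1pr3, and Lcn2, Dbh, Tph2 and Pcp2 in single libraries, were named after their values were seen. The members, lists, tests and alternatives were chosen with earlier results of these data known. Promoters are from RefSeq on GRCm38.p6 and were matched by symbol for 8 of 10 members.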

Additional observations from a re-analysis of the deposited data

Results flagged for a closer look

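In 33 sets of values, each of 1 measure in 1 group, the highest or lowest library was compared with the rest by Dixon's test, which flags about 1 in 20 by chance, and 2 stood apart. Gfap in control replicate 6 was at 207 TPM, against 113 to 145 TPM in the other 5 controls. Gja1 in VB-127 replicate 2 was at 71.8 TPM, against 90.9 to 97.9 TPM in the other 5.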

How the results depend on the processing

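No member was called in any comparison under 32 alternatives each (pseudocount, filter, scaling, weights, moderation, covariates, samples and each library left out), so every count of called members stayed at 0. Few genes of any kind were called: at most 14, for vindeburnol with neuron and oligodendrocyte covariates, and at most 3 in every other fit. Gfap ranged from -0.70 to -0.46 (adjusted p 0.143 to 0.938) for vindeburnol and -0.50 to -0.27 for VB-127 against controls, Aldh1l1 from 0.27 to 0.44 for vindeburnol and Slc7a10 from 0.32 to 0.48 for VB-127. Of the pairs of members, 0 passed under median-ratio scaling and 3 over deviations from group means, against 2. The share of genes at an unadjusted p under 0.05 that were higher was 85.1% for vindeburnol and 94.8% for VB-127 as deposited, and 51.9% and 53.1% under median-ratio scaling, which moved the all-gene medians from 0.08 and 0.11 to 0.0028 and 0.0089.

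Signs changed for some values. Most were within 0.1 of 0 as reported, but Sox9 and Agt for vindeburnol were at -0.28 and -0.13, Aqp4 for VB-127 at 0.13, Fgfr3 for vindeburnol at 0.11 and Agt between the compounds at -0.12. For vindeburnol against controls, Fgfr3 was -0.011 with library weights and -0.041 with the astrocyte covariate; without control replicates 1 and 6, Gja1 was 0.027 and Aldoc 0.000249; without vindeburnol replicates 1 and 3, Gja1 was 0.020, Sox9 0.0092 and Aldoc 0.016. For VB-127 against controls, Aldh1l1, Fgfr3 and Sox9 were -0.036, -0.074 and -0.089 with median-ratio scaling and -0.027, -0.042 and -0.12 with quantile normalization, and Fgfr3 and Sox9 -0.019 and -0.040 without Bc1. Sox9 was -0.016 with library weights. With the astrocyte covariate, Aqp4 was -0.048, Agt 0.011, Fgfr3 -0.083 and Sox9 -0.044. With neuron and oligodendrocyte covariates, Agt was 0.019 and Sox9 -0.026. Without control replicates 1 and 6, Sox9 was -0.011 and Aldoc 0.018. Between the compounds, Aldoc was 0.018 with median-ratio scaling, 0.033 with neuron and oligodendrocyte covariates and 0.018 without vindeburnol replicates 1 and 3, and Fgfr3 -0.061 with library weights. With 1 library left out, the ranges that crossed 0 were, for vindeburnol, Gja1 -0.14 to 0.064, Agt -0.27 to 0.096 and Aldoc -0.072 to 0.019. For VB-127 they were S100b -0.12 to 0.0054, Agt -0.051 to 0.043, Fgfr3 -0.032 to 0.11, Sox9 -0.018 to 0.075 and Aldoc -0.025 to 0.037. Between the compounds they were Agt -0.26 to 0.099, Fgfr3 -0.024 to 0.14, Aldoc -0.070 to 0.0083 and Gfap against the general genes -0.17 to 0.020. The cause was not tested.

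With the replicate number as a block, Gfap was -0.48 for vindeburnol (adjusted p 0.721) and Slc7a10 0.44 for VB-127 (adjusted p 0.630), and no call changed. The numbers did not pair the libraries: of 16 same-numbered pairs, 1 correlated above 0.1 in deviations from group means, with a median r of -0.04. Depth is unknown with TPM, so low genes carry counting error that cannot be given.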
